A study of Mus musculus with 2 samples.

Results

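Killer-lectin and natural cytotoxicity receptor genes, 10 in all, were followed through the immune cells of treated mouse liver tumors: Klrc1, Klrc2, Klrd1, Klrk1, Klrb1b, Klrb1c, Klrg1, Klre1, Klri2 and Ncr1. They were listed by name as the NKG2, NK1.1 and other NK receptors outside the Ly49 group, and all 10 were present in both count matrices, among 32285 genes. The tumors came from a lenvatinib-resistant mouse model of hepatocellular carcinoma (HCC) in wild-type C57BL/6 J mice. The mice received a human MYC transgene, a Cas9 plasmid against Trp53 and the sleeping beauty transposase by hydrodynamic injection through the tail vein. Tumors of both groups therefore carried the same Trp53KO/MYCOE changes. All mice had received lenvatinib, a multikinase inhibitor, until the tumors regrew, and were then given lenvatinib alone or lenvatinib with palbociclib, an inhibitor of CDK4 and CDK6 (combo). Live CD45+ cells were sorted from the tumors and sequenced by droplet single-cell RNA sequencing, with 1 library per treatment. The number of mice behind each library was not given in the sources used here, and treatment and library cannot be told apart, so no test between treatments was possible and no p-value is given.

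Killer-lectin receptors are type II membrane proteins on NK cells and on some T cells that read self or stress ligands. Klrd1 encodes CD94, which pairs with NKG2A (Klrc1) to inhibit the cell or with NKG2C (Klrc2) to activate it when the non-classical MHC molecule Qa-1b is bound, and Klrk1 encodes NKG2D, which signals through the adaptors DAP10 and DAP12 on meeting stress-induced ligands such as the RAE-1 family. Klrb1b encodes an inhibitory NKR-P1 receptor for the Clec2d product, Klrb1c encodes the NK1.1 antigen of C57BL/6 mice, Klrg1 binds cadherins and marks mature effector NK cells, effector CD8 T cells and some regulatory T cells, Klre1 and Klri2 encode partners in a common receptor pair, and Ncr1 encodes NKp46.

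On mm10, 9 of the 10 genes lie on chromosome 6, and 8 of these fill a stretch of 962 kb in the NK gene complex, from Klrb1c (chr6:128778485-128789215) to Klri2 (chr6:129729041-129740484). Klrb1b lies at chr6:128813706-128826331, Klre1 at chr6:129577905-129585827, Klrd1 at chr6:129591782-129598775, Klrk1 at chr6:129610323-129623864, Klrc2 at chr6:129647496-129660689 and Klrc1 at chr6:129666015-129678973. Klre1 and Klrd1 are on the plus strand and the other chromosome 6 members on the minus strand. Klrg1 lies apart from the cluster at chr6:122270596-122282882, and Ncr1 is on the plus strand of chromosome 7, at chr7:4337724-4345164. The gene models are nearly identical in places. Of all windows of 50 bases in its transcripts, Klrc1 shared 38.6% with Klrc2 or Klrc3, and Klrc2 shared 16.3% with Klrc1 or Klrc3. Klrb1b shared 27.2% and Klrb1c 17.0% of windows, mostly with the overlapping model Gm44511, which was not in the count matrices. In the last 500 bases, where these 3′ tags fall, the shared portion was 43.5% for Klrc1 and 15.2% for Klrc2. Reads from stretches shared by counted genes could not be given to 1 gene, which makes the Klrc1 and Klrc2 values uncertain. The shares of Klrb1b and Klrb1c do not measure such an uncertainty, since most of them are with a model that was not counted. Klrd1, Klrk1, Klrg1 and Ncr1 shared no window with another gene.

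The 150 bases before the RefSeq start site (GRCm38.p6) were available for 7 members, and 5 of the 7 held the RUNX core motif TGTGGT on either strand. That motif stood in 8.40% of 32851 promoter windows of the same length. The 5 windows are shown because NK cells and CD8 T cells share RUNX factors, with the motif in capitals (as TGTGGT, or as ACCACA where it lies on the opposite strand), 5′ to 3′ along each gene's strand.
Klrc1 (chr6:129678974-129679123, minus strand): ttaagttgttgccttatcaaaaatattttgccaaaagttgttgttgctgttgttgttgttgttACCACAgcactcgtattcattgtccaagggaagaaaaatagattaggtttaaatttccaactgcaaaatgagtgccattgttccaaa
Klrc2 (chr6:129660597-129660746, minus strand): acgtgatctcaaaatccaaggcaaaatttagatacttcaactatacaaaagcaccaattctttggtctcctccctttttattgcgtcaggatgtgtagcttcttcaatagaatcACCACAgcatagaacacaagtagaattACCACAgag
Klrk1 (chr6:129623865-129624014, minus strand): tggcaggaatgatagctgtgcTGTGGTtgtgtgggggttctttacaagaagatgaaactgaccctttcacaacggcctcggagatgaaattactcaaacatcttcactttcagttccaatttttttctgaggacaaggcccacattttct
Klrb1c (chr6:128788642-128788791, minus strand): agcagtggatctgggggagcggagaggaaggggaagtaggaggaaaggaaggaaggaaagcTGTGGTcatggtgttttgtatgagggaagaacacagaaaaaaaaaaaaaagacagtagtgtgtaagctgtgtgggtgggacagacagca
Ncr1 (chr7:4337574-4337723, plus strand): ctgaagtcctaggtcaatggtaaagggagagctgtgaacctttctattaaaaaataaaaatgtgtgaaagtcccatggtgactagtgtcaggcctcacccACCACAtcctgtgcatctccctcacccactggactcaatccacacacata
The match in Klrc1 starts 87 bases before the start site, the 2 matches in Klrc2 start 36 and 9 bases before it, and those in Klrk1, Klrb1c and Ncr1 start 129, 89 and 50 bases before it. Klrb1b and Klre1 had no RUNX match in this window. The ETS core AGGAAG stood in the windows of 2 of the 7 members, Klrb1b and Klrb1c, and in 19.7% of all promoter windows, and the T-box core GGTGTGA stood in none of the 7 and in 1.92% of all. Neither core overlaps the RUNX core. These windows use 1 start site per member, whereas the shares cover all listed starts. Of the 11 listed starts of the 7 members, 7 held the RUNX core and 4 the ETS core. Klre1 was then among the genes with an ETS match. A match of letters is a description of the sequence and was not tested as a binding site. Klrd1, Klrg1 and Klri2 had no entry.

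After cells with over 6000 genes or over 25% mitochondrial UMIs (unique molecular identifiers, each standing for 1 captured RNA molecule) were set aside, 14201 cells remained in the lenvatinib library and 11613 in the combo library, with median depths of 5541 and 5754 UMIs. The 2 libraries had 49 barcode sequences in common. Cells were called NK cells when they had an Ncr1 UMI and no Cd3e UMI, which gave 2851 cells under lenvatinib and 1264 under combo, 20.1% and 10.9% of all cells. Cells with a Cd3e UMI were called T cells and divided into CD8 T cells (Cd8b1, no Cd4 or Trdc; 3094 and 2418), CD4 T cells (Cd4, no Cd8b1 or Trdc; 577 and 527), Trdc+ T cells (Trdc, no Cd8b1 or Cd4; 592 and 328) and other T cells with none of the 3 genes (2156 and 1577). T cells with more than 1 of the 3 genes (390 and 236) are not described further. Apart from Ncr1, which chose the cells, the NK markers used (Klrb1c, Klra8, Eomes, Prf1, Gzma, Nkg7 and Txk) were each found in at least 39.95% of NK-gate cells of each library. The Trdc+ class also held Trac, the constant region of the alpha chain, at 116 CPM under lenvatinib and 135 CPM under combo against 535 and 603 CPM in CD8 T cells, and is named here by its gate. RNA of neutrophils was unequal between the libraries. S100a8, a neutrophil calprotectin subunit, stood at 774 CPM in NK-gate cells under lenvatinib and at 11969 CPM under combo, and the NK ratios between libraries are also given without the cells concerned.

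Levels were taken as CPM, the UMIs of a gene summed over a class and scaled to the class total, with exact Poisson 95% intervals, and detection as the percentage of cells with a UMI after each cell was thinned to 2000 UMIs. Intervals cover counting error only, not differences between mice or libraries. Every member but Klrg1 was highest in NK cells and followed nearly the same order of classes, with NK cells above Trdc+ T cells, other T cells and then CD8 or CD4 T cells. Ncr1 chose the NK cells and its level there is no result.

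**Figure D1:**
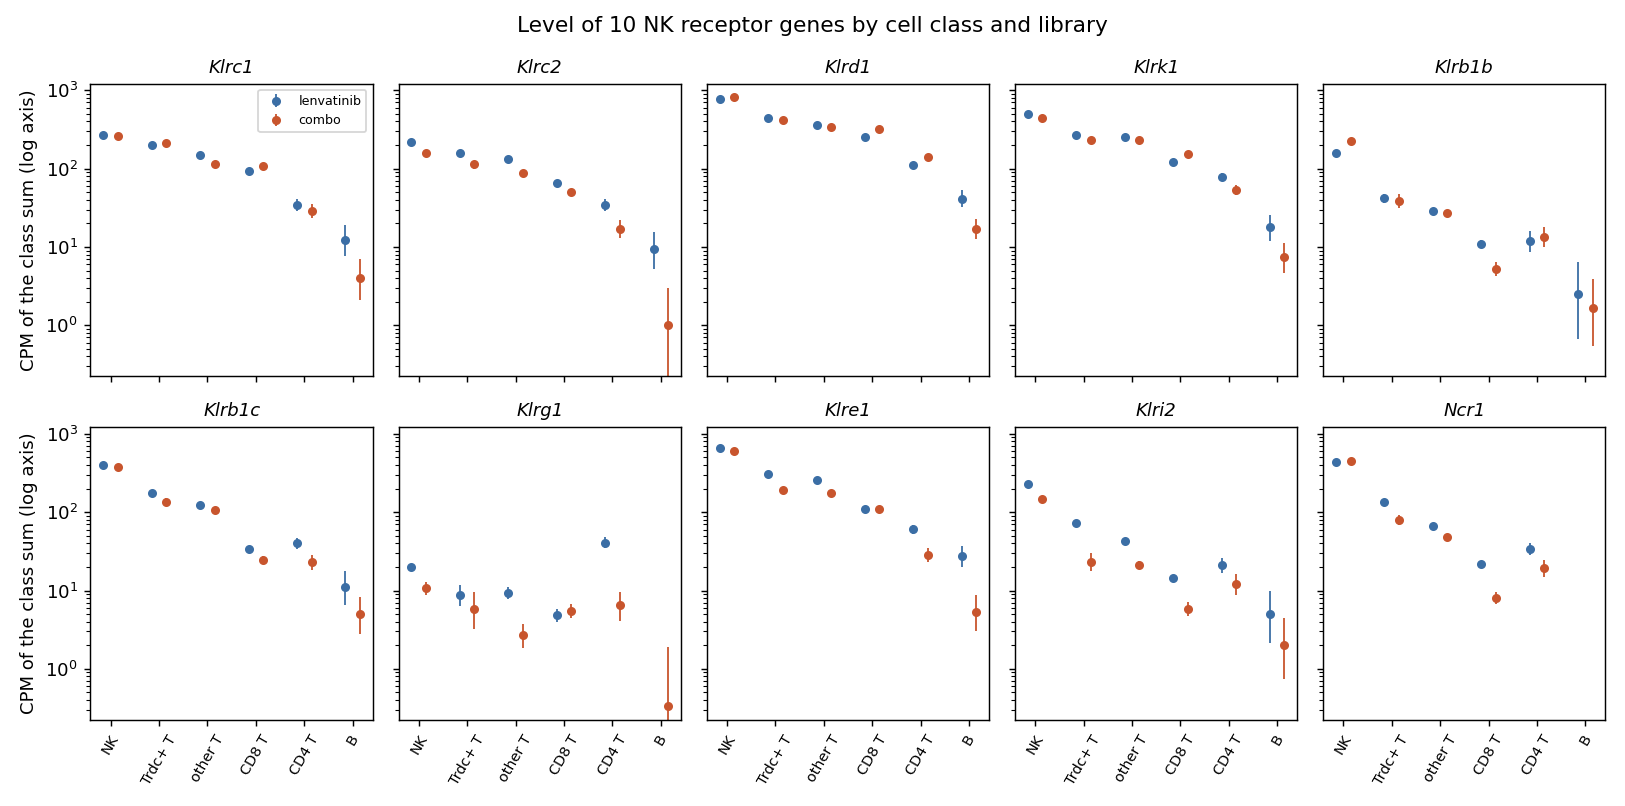
Level of each member in CPM (log axis) in 6 cell classes, lenvatinib in blue and combo in orange, with points for the class sums and bars for exact Poisson 95% intervals. Values of 0 are not drawn (Klrg1 in lenvatinib B cells, and Ncr1 in B cells, whose gate excludes it). Members other than Klrg1 were highest in NK cells in both libraries, and Klrb1b, Klri2 and Ncr1 stood higher in CD4 than in CD8 T cells. Klrg1 under lenvatinib was highest in CD4 T cells, at 41.0 CPM.

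For the CD94 pair, Klrd1 stood in NK cells at 769 CPM under lenvatinib (757 to 780) and 823 CPM under combo (807 to 840), and was detected in 72.2% and 75.0% of thinned NK cells. In Trdc+ T cells Klrd1 was at 444 and 418 CPM, in other T cells at 356 and 339 CPM, in CD8 T cells at 254 and 317 CPM and in CD4 T cells at 111 and 142 CPM. B cells, which do not make CD94, held Klrd1 at 41.5 CPM under lenvatinib and 17.1 CPM under combo, with a UMI in 5.41% and 3.36% of thinned B cells, at median depths of 3287 and 3605 UMIs against 6947 and 7242 UMIs in NK cells before thinning. Myeloid cells (a Csf1r or Csf3r UMI and no Cd3e, Ncr1 or Cd79a), at median depths of 2885 and 5767 UMIs, held more, with Klrd1 at 95.8 and 42.6 CPM and in 10.9% and 5.03% of thinned cells. Klrd1 in CD4 T cells, at 11.6% and 14.2% of thinned cells, was above both classes under combo but at the myeloid level under lenvatinib. Its inhibitory partner Klrc1 was at 265 and 258 CPM in NK cells, 203 and 210 CPM in Trdc+ T cells, 150 and 114 CPM in other T cells, 94.0 and 109 CPM in CD8 T cells and 34.5 and 28.9 CPM in CD4 T cells. Thinned detection of Klrc1 in NK cells was 35.5% and 33.8%, and in Trdc+ T cells 28.4% and 28.6%. The activating partner Klrc2 was at 218 and 158 CPM in NK cells, 159 and 113 CPM in Trdc+ T cells, 132 and 87.5 CPM in other T cells, 66.3 and 50.2 CPM in CD8 T cells and 34.5 and 17.1 CPM in CD4 T cells. Klrc2 was thus lower under combo in all 5 classes, by less than 1.5-fold in NK, CD8 and Trdc+ T cells.

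Klrk1 (NKG2D) stood at 503 CPM under lenvatinib and 445 CPM under combo in NK cells, with thinned detection of 61.7% and 59.7%. It was at 270 and 234 CPM in Trdc+ T cells, 251 and 230 CPM in other T cells, 121 and 154 CPM in CD8 T cells and 79.2 and 53.7 CPM in CD4 T cells. CD8 T cells were the only 1 of these 5 classes in which Klrk1 was higher under combo, and in other T cells its direction turned under 4 of the alternative settings. Klrk1 in B cells was at 18.0 and 7.40 CPM.

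Of the NKR-P1 genes, Klrb1b was the more confined to NK cells, at 160 and 222 CPM there, 41.6 and 38.8 CPM in Trdc+ T cells and 10.9 and 5.22 CPM in CD8 T cells, and NK cells held 67.3% of all its UMIs under lenvatinib and 71.0% under combo. Klrb1c (NK1.1) stood at 406 and 378 CPM in NK cells, 175 and 137 CPM in Trdc+ T cells, 123 and 106 CPM in other T cells and 33.6 and 24.8 CPM in CD8 T cells, and was detected in 54.1% and 54.2% of thinned NK cells. Klrb1c in thinned Trdc+ and other T cells was found in 25.0% and 17.6% of cells under lenvatinib and in 18.5% and 16.2% under combo, against 4.81% and 3.73% of CD8 T cells. In the NK cells of C57BL/6 mice the NK1.1 protein is a standard surface marker, and 82.3% and 84.5% of unthinned NK-gate cells had a Klrb1c UMI.

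Klre1 was at 660 and 602 CPM in NK cells, 310 and 190 CPM in Trdc+ T cells, 256 and 174 CPM in other T cells, 111 and 110 CPM in CD8 T cells and 60.9 and 28.7 CPM in CD4 T cells. Its pairing partner Klri2 had a narrower pattern, at 230 and 148 CPM in NK cells, 72.5 and 23.3 CPM in Trdc+ T cells, 42.6 and 21.4 CPM in other T cells, 14.2 and 5.85 CPM in CD8 T cells and 21.0 and 12.1 CPM in CD4 T cells. NK cells held 69.0% of all Klri2 UMIs under lenvatinib and 68.3% under combo, against 56.8% and 52.6% of Klre1 UMIs. In B cells Klre1 was at 27.3 and 5.38 CPM and Klri2 at 4.95 and 2.02 CPM. In myeloid cells Klre1 was at 38.8 and 8.44 CPM and Klri2 at 11.1 and 1.39 CPM, so both were higher there in the lenvatinib library. This was not particular to the pair. Klrc1, Klrc2, Klrd1, Klrk1, Klrb1b and Klrb1c in myeloid cells had ratios of combo to lenvatinib of 0.147 to 0.445.

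Outside the NK gate, Ncr1 was at 134 and 79.6 CPM in Trdc+ T cells, 67.4 and 47.8 CPM in other T cells, 34.2 and 19.1 CPM in CD4 T cells and 21.8 and 8.06 CPM in CD8 T cells. In a gate that used no member (Cd3e, Cd3d, Cd3g, Cd79a, Csf1r and Csf3r at 0 and at least 3 of Nkg7, Prf1, Gzma, Eomes, Txk and Tyrobp found), 76.2% of 2190 cells under lenvatinib and 80.4% of 858 cells under combo had an Ncr1 UMI, at 399 and 441 CPM.

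Klrg1 was sparse and had an order of its own. It stood at 19.7 CPM in NK cells under lenvatinib and 10.7 CPM under combo, with a UMI in 9.68% and 5.54% of unthinned cells, and at 41.0 and 6.46 CPM in CD4 T cells, 9.33 and 2.68 CPM in other T cells, 8.86 and 5.82 CPM in Trdc+ T cells and 4.81 and 5.45 CPM in CD8 T cells. B cells held 0 Klrg1 UMIs in 414 cells under lenvatinib, where 3 UMIs would stand at 1.86 CPM, and 0.34 CPM under combo. CD4 T cells with a UMI of Foxp3, the transcription factor of regulatory T cells, carried most of the CD4 T cell UMIs under lenvatinib, 123 of 152, and 11 of 23 under combo. In these cells Klrg1 was at 102 CPM under lenvatinib (84.5 to 121; 182 cells) and 53.5 CPM under combo (26.7 to 95.8; 27 cells). In CD4 T cells without a Foxp3 UMI it was at 11.6 CPM (7.76 to 16.6; 395 cells) and 3.58 CPM (1.85 to 6.25; 500 cells). The other 9 members went the opposite way under lenvatinib, each lower in Foxp3+ than in Foxp3- CD4 T cells, as with Klrd1 at 51.3 against 140 CPM and Klrk1 at 31.4 against 102 CPM.

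**Figure D2:**
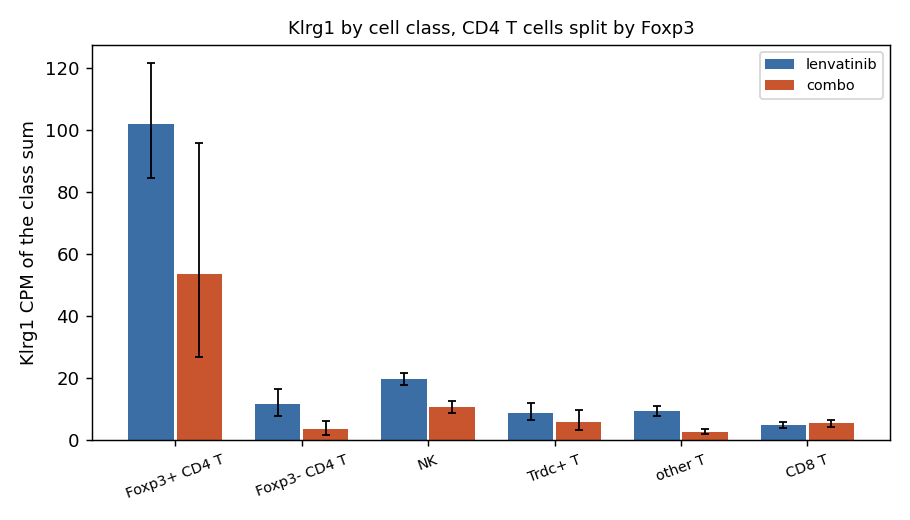
Klrg1 in CPM of the class sum by cell class, with CD4 T cells split by a Foxp3 UMI, lenvatinib in blue and combo in orange; bars on the columns are exact Poisson 95% intervals. Foxp3+ CD4 T cells stand highest in both libraries, at 102 and 53.5 CPM, and the combo value rests on 11 UMIs in 27 cells.

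Across cells, most NK cells had several of these receptors. Of the 9 members other than Ncr1, the median NK cell thinned to 2000 UMIs had 4 in each library, and 81.9% under lenvatinib and 80.2% under combo had at least 3. Trdc+ T cells had 3 or more in 39.3% and 29.5% of cells, other T cells in 30.2% and 22.7%, CD8 T cells in 11.8% and 14.7%, CD4 T cells in 4.46% and 2.88% and B cells in 0.52% and 0.20%. None of the 9 was found in 3.85% and 6.48% of NK cells and in 42.6% and 40.3% of CD8 T cells. Klrd1 and Klrc1, which form 1 inhibitory receptor, were found together in 26.3% of thinned NK cells under lenvatinib (24.6 to 28.0) and 26.7% under combo (24.3 to 29.3), close to the products of their separate shares, 25.6% and 25.4%. In NK cells without a Klra8 UMI, Klrc1 was in 45.3% and 47.8% of cells with Klrd1 and in 39.4% and 31.6% of those without. In NK cells with a Klra8 UMI these shares were 26.1% and 20.2% against 23.7% and 20.7%. In CD8 T cells Klrd1 and Klrc1 were found together in 6.27% (5.43 to 7.20) and 10.1% (8.88 to 11.3) of cells, above the products of 4.85% and 7.39%. Klrc1 and Klrc2, the inhibitory and activating partners, met in 12.8% and 10.6% of NK cells against products of 12.1% and 10.1%, and in 2.79% and 3.94% of CD8 T cells against products of 1.48% and 1.61%. Among CD8 T cells with a Klrc2 UMI, 26.8% and 44.3% also had Klrc1, compared with 12.7% and 15.6% of those without. The shared sequence of Klrc1 and Klrc2 touches this pair, and its part in the overlap was not tested. Klre1 and Klri2 were found together in 24.2% and 19.6% of NK cells against products of 21.8% and 16.5%. Klrk1 and Klrc1, which belong to different receptors, met in 4.68% and 7.42% of CD8 T cells against products of 2.44% and 4.02%. In NK cells Klrk1 and Klrc1 met in 22.7% and 22.9% against 21.9% and 20.2%. A share above the product was therefore not particular to receptor partners.

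NK cells were then split by a UMI of Klra8 (Ly49H), an activating Ly49 receptor, to ask how the members divide between subsets of the same gate. Klrc1 and Klrb1b were lower in Klra8+ than in Klra8- NK cells in both libraries, whereas Klri2, Klre1 and Klrd1 were higher. Klrc1 was at 331 CPM in Klra8- and 189 CPM in Klra8+ cells under lenvatinib (ratio 0.570, range 0.528 to 0.614 taken from opposite ends of the intervals) and at 321 and 156 CPM under combo (ratio 0.488, 0.433 to 0.548). Klrb1b was at 210 and 102 CPM (0.487, 0.440 to 0.538) and at 282 and 127 CPM (0.451, 0.396 to 0.512). The thinned detection of both genes moved the same way, from 43.5% to 25.5% and from 42.9% to 20.3% for Klrc1 and from 30.7% to 17.4% and from 39.8% to 23.3% for Klrb1b. Klri2 was at 197 CPM in Klra8- and 269 CPM in Klra8+ cells under lenvatinib (1.37, 1.27 to 1.48) and at 117 and 198 CPM under combo (1.70, 1.48 to 1.94). Klre1 was at 606 and 722 CPM (1.19, 1.14 to 1.25) and at 511 and 748 CPM (1.46, 1.37 to 1.57), and Klrd1 at 731 and 813 CPM (1.11, 1.07 to 1.16) and at 748 and 944 CPM (1.26, 1.19 to 1.34). Klrc2, the activating partner of CD94, was at 219 and 216 CPM under lenvatinib (0.987, 0.911 to 1.07) and at 158 and 159 CPM under combo (1.01, 0.879 to 1.15), so it did not follow Klrc1. Klrk1 was at 499 and 509 CPM (1.02, 0.968 to 1.07) and at 437 and 457 CPM (1.05, 0.965 to 1.13). Klrg1 was at 17.8 and 21.9 CPM under lenvatinib (1.23, 0.943 to 1.61) and at 6.60 and 17.3 CPM under combo (2.62, 1.54 to 4.48), where the Klra8- value rests on 46 UMIs.

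Past 1.5-fold, 2 of 10 members were lower in Klra8+ NK cells in each library (Klrc1 and Klrb1b), beside 1.46% of 3023 genes under lenvatinib and 5.37% of 2833 genes under combo. Upward 0 members passed it under lenvatinib, beside 0.232% of genes, and Klri2 and Klrg1 did under combo, beside 1.34%. These shares cover genes with at least 50 CPM, a level that Klrg1 did not reach. Median log2 differences of the members were 0.03 and 0.16, and of all genes -0.01 and 0.01. The counts of 10 and the medians of the members include Ncr1, which chose the NK cells. The 2 subsets also differed in markers of another innate lymphocyte. The 7 genes listed for ILC1-like cells (Itga1, Cxcr6, Tnfsf10, Rora, Il7r, Cd200r1 and Inpp4b) summed to 453 CPM in Klra8- and 191 CPM in Klra8+ cells under lenvatinib and to 577 and 137 CPM under combo, none of them at 0 in any of the 4. Eomes, the factor of conventional NK cells, was at 203 and 335 CPM and at 84.9 and 211 CPM. The part of ILC1-like cells in the Klrc1 and Klrb1b values was not tested. S100a8 was also higher in the Klra8- cells, at 1254 against 219 CPM under lenvatinib and 15725 against 5940 CPM under combo.

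**Figure D3:**
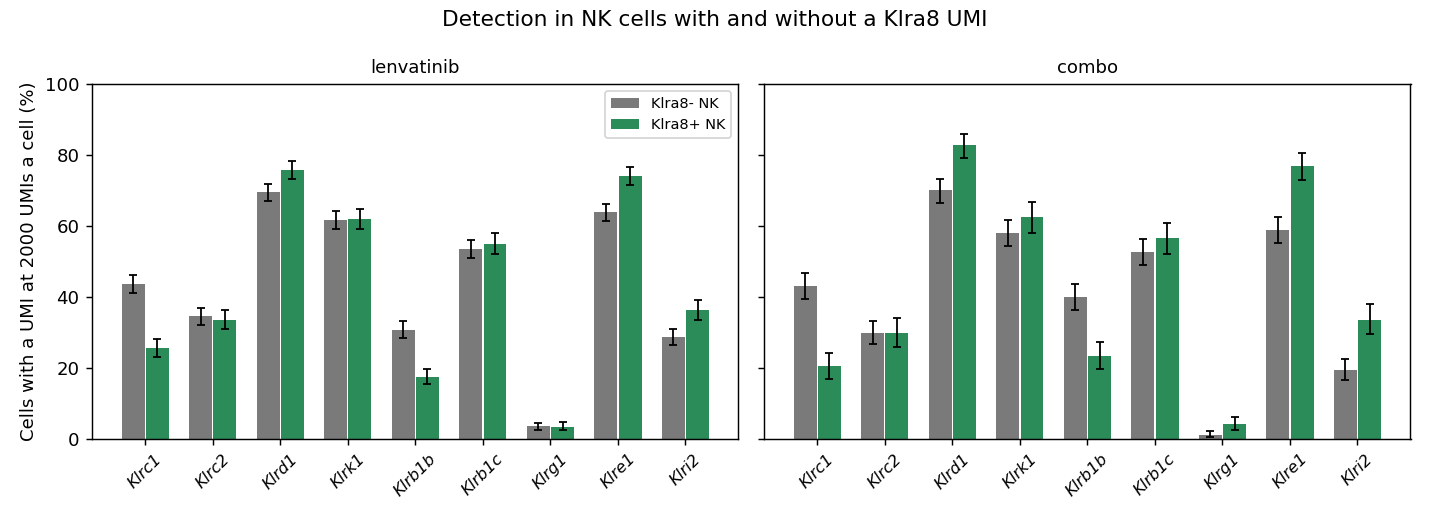
Percentage of NK cells with a UMI of each member after thinning to 2000 UMIs a cell, Klra8- in grey and Klra8+ in green, 1 panel per library; bars on the columns are exact Clopper-Pearson 95% intervals. Klrc1 and Klrb1b were found in fewer Klra8+ than Klra8- cells in both panels, and Klre1, Klrd1 and Klri2 in more.

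Between the libraries, NK cells differed little in most members. Past 1.5-fold, 0 of 10 members were higher under combo and 2 were lower, Klrg1 and Klri2. The 10 include Ncr1, which chose the cells. Among genes with at least 50 CPM, 11.2% of 3082 were lower and 3.86% were higher. Without that minimum, which the members did not have to meet, 12.3% of 11953 genes were lower and 10.1% higher. Klri2 went from 230 to 148 CPM (ratio 0.643, range 0.597 to 0.694) and Klrg1 from 19.7 to 10.7 CPM (0.543, 0.410 to 0.713). Klrc2 was lower by less than the limit, at 218 and 158 CPM (0.728, 0.675 to 0.784). Klrb1b was the member highest under combo relative to lenvatinib, at 160 and 222 CPM (1.39, 1.295 to 1.496). Klrc1 (0.972, 0.914 to 1.03), Klrd1 (1.07, 1.03 to 1.11), Klre1 (0.913, 0.877 to 0.9499), Klrk1 (0.884, 0.844 to 0.926) and Klrb1c (0.929, 0.883 to 0.977) lay within 1.2-fold of equal, and the direction of Klrc1, Klre1 and Klrb1c turned without cells holding neutrophil RNA. The median log2 ratio of the 10 members, Ncr1 included, was -0.12 and that of all genes tested -0.13.

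Some of these values moved when cells with neutrophil RNA were left out. Without cells that had a Csf3r UMI or more than 1% of their UMIs from S100a8, 2688 and 1073 NK cells remained, Klri2 was at 233 and 168 CPM (log2 ratio -0.47, under the limit), Klrg1 at 19.9 and 11.7 CPM (log2 ratio -0.77, still past it), Klrb1b at 164 and 248 CPM (0.60, now past the limit) and Klrk1 at 513 and 507 CPM (-0.02). The log2 ratio without these cells was 0.14 for Klrc1, 0.05 for Klrb1c and 0.03 for Klre1, each below 0 with all cells, -0.33 for Klrc2 and 0.23 for Klrd1. S100a8 in the remaining cells was still unequal, at 113 and 687 CPM. In Klra8+ NK cells 0 of 10 members, Ncr1 included, passed the limit, beside 10.9% of genes that were lower and 2.57% that were higher. In Klra8- NK cells Klrg1 (17.8 and 6.60 CPM) and Klri2 (197 and 117 CPM) were lower and 0 were higher. Beside them stood 12.2% and 4.84% of genes with at least 50 CPM, a level that Klrg1 did not reach.

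Genes that work with these receptors were compared in NK cells with the same limit, which 11.2% of genes with at least 50 CPM passed downward and 3.86% upward. Without that minimum, which the listed genes did not have to meet, the shares were 12.3% and 10.1%. Of 14 adaptor and signaling genes, 0 were higher under combo and 2 were lower, Zap70, the kinase bound by phosphorylated receptor tails, at 96.0 and 62.2 CPM, and Sh2d1b2. Hcst, which encodes the NKG2D adaptor DAP10, was at 401 and 365 CPM, and Tyrobp, which encodes DAP12, at 1747 and 1879 CPM. Of 14 ligand genes, 8 could be compared, of which 2 were lower, Clec2d, the ligand of Klrb1b, at 47.6 and 19.3 CPM and Ulbp1, a ligand of NKG2D, at 20.2 and 9.99 CPM, and H60b was higher on 10 and 15 UMIs. Of 13 other NK receptors compared, Klrc3 and Klrb1 were lower and Fcgr3, the Fc receptor of antibody-dependent killing, was higher, at 29.0 and 50.04 CPM. Among 12 factors and maturation genes, Eomes, Tbx21 and Gata3 were lower and Itgam and Cx3cr1 higher, with Eomes at 264 and 134 CPM and Tbx21 at 93.4 and 53.7 CPM. Fcgr3, Itgam and Cx3cr1 are also myeloid genes, and without cells holding neutrophil RNA none of the 3 passed the limit, with Fcgr3 at 25.7 and 29.3 CPM, Itgam at 49.2 and 46.2 CPM and Cx3cr1 at 3.17 and 3.73 CPM. Eomes at 266 and 149.8 CPM, Tbx21 at 95.1 and 61.0 CPM and Clec2d at 47.4 and 21.3 CPM stayed past it there, while Zap70 at 97.3 and 70.9 CPM did not.

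In CD8 T cells the NK-restricted members were lower under combo, while the CD94, NKG2A and NKG2D genes stood somewhat higher. Ncr1 was at 21.8 and 8.06 CPM (ratio 0.369, 0.286 to 0.473), Klri2 at 14.2 and 5.85 CPM (0.410, 0.303 to 0.553) and Klrb1b at 10.9 and 5.22 CPM (0.481, 0.345 to 0.665). These were 3 of 10 members past the limit downward and 0 upward, beside 9.84% of genes lower and 3.50% higher, or 12.4% and 9.36% without the minimum of 50 CPM. Ncr1, Klri2 and Klrb1b were found in 2.82%, 2.09% and 1.56% of thinned CD8 T cells under lenvatinib and in 0.92%, 0.88% and 0.63% under combo. Klri2 in B cells, whose gate does not use it, was found in 1.03% and 0.59% of thinned cells, so the CD8 share under combo was near that of B cells. In myeloid cells Klri2 was found in 2.26% and 0.192% and Klrb1b in 2.71% and 0.767% of thinned cells, at 11.1 and 1.39 CPM and at 13.1 and 5.27 CPM. The CD8 values of both genes under lenvatinib, and of Klrb1b under combo, were therefore close to the myeloid level, and the myeloid levels were also lower under combo (ratios of 0.125 and 0.402). Klra8, another NK gene, was at 22.0 and 5.50 CPM in CD8 T cells and so moved with them, and the part of free NK RNA or of NK and T cell doublets in the 3 genes was not tested beyond the alternatives given at the end.

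Klrd1 went from 254 to 317 CPM in CD8 T cells (1.25, 1.19 to 1.31), Klrk1 from 121 to 154 CPM (1.27, 1.18 to 1.37) and Klrc1 from 94.0 to 109 CPM (1.16, 1.07 to 1.26). Thinned detection was 34.2% and 40.8% for Klrd1, 17.2% and 22.2% for Klrk1 and 14.2% and 18.1% for Klrc1. None of the 3 reached 1.5-fold. Klrc2 was lower, at 66.3 and 50.2 CPM (0.757, 0.675 to 0.848), as was Klrb1c, at 33.6 and 24.8 CPM (0.738, 0.627 to 0.867), and Klre1 was at 111 and 110 CPM (0.991, 0.914 to 1.07). Klrg1, a marker of effector CD8 T cells, was at 4.81 and 5.45 CPM on 125 and 96 UMIs, and no difference was detectable at this depth (1.13, 0.770 to 1.66). Since Klrc1 was higher and Klrc2 lower, the 2 genes that pair with Klrd1 moved apart in CD8 T cells, a difference that the shared sequence of the 2 genes touches. Klrc2 also had the lower ratio in NK cells (0.728 against 0.972 for Klrc1) and Trdc+ T cells (0.710 against 1.04). The same held in CD4 T cells (0.497 against 0.839) and other T cells (0.663 against 0.763), where the counting ranges of the 2 genes overlap. Split by a UMI of Pdcd1, CD8 T cells without it had the same 3 members lower and 0 higher. Beside them stood 9.71% and 3.38% of genes with at least 50 CPM, a level that the 3 did not reach. CD8 T cells with a Pdcd1 UMI had 5 lower (Klrc2, Klrb1b, Klrg1, Klri2 and Ncr1) and 0 higher, beside 18.6% and 3.38% of genes with at least 50 CPM, a level that Klrb1b, Klrg1, Klri2 and Ncr1 did not reach in these cells. Klrg1 on 24 and 15 UMIs (0.206 to 1.41) and Klrb1b on 38 and 27 UMIs (0.298 to 1.28) had ranges that include equal levels, whereas Klrc2 was at a ratio of 0.646 (0.475 to 0.877).

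In CD4 T cells 6 of 10 members were lower under combo past the limit (Klrc2, Klrb1c, Klrg1, Klre1, Klri2 and Ncr1), beside 20.8% of 3349 genes, or 23.3% of 10037 without the minimum of 50 CPM. Upward it was 0 members, beside 3.05% and 4.72% of genes. Klrg1 differed most, from 41.0 to 6.46 CPM (0.158, 0.085 to 0.279; 152 and 23 UMIs). Foxp3 itself was at 141 and 19.9 CPM in these cells, and 182 of 577 CD4 T cells under lenvatinib and 27 of 527 under combo had a Foxp3 UMI. Without the Foxp3+ cells the Klrg1 ratio was 0.309, on 29 and 12 UMIs, that of Klrd1 was 1.05 and that of Klrk1 0.554. Klre1 was at 60.9 and 28.7 CPM (0.471, 0.337 to 0.654), Klrc2 at 34.5 and 17.1 CPM (0.497, 0.320 to 0.765), and Klrd1, with all CD4 T cells, at 111 and 142 CPM (1.28, 1.06 to 1.54). Klrb1b was at 11.9 and 13.5 CPM (1.14, 0.625 to 2.08). The CD4 values other than those of Klrd1, Klrk1 and Klrg1 were at most 60.9 CPM. B cell levels of the same genes reached 27.3 CPM and myeloid levels 38.8 CPM. These background levels were also lower under combo. In myeloid cells the ratios were 0.147 for Klrc2, 0.231 for Klrb1c, 0.217 for Klre1 and 0.125 for Klri2, and in B cells 0.197 for Klre1. The part of free RNA in the CD4 ratios was not tested beyond the alternatives given at the end.

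In Trdc+ T cells 4 of 10 were lower (Klrg1, Klre1, Klri2 and Ncr1), beside 14.4% of 3102 genes, or 16.2% of 9510 without the minimum, and 0 were higher, beside 3.55% and 7.3%. Klri2 was at 72.5 and 23.3 CPM (0.321, 0.221 to 0.461), Ncr1 at 134 and 79.6 CPM (0.592, 0.476 to 0.734) and Klre1 at 310 and 190 CPM (0.613, 0.532 to 0.705). Klrc1, at 203 and 210 CPM (1.04, 0.893 to 1.20), and Klrd1, at 444 and 418 CPM (0.941, 0.849 to 1.04), differed by less than their counting ranges. Klrg1 there rests on 43 and 15 UMIs, and its range of 0.273 to 1.499 includes equal levels. Fewer members were lower in Trdc+ T cells when at least 2 Cd3e UMIs were required. The part of free NK RNA or of NK and T cell doublets in the Trdc+ values was not tested beyond the alternatives given at the end. In other T cells Klrc2, Klrg1 and Klri2 were lower, beside 16.8% of 3107 genes, or 18.5% of 12138 without the minimum, and 0 were higher, beside 5.05% and 8.01%. Klri2 was at 42.6 and 21.4 CPM (0.503, 0.410 to 0.614), Klrc2 at 132 and 87.5 CPM (0.663, 0.597 to 0.736) and Klrg1 at 9.33 and 2.68 CPM (0.288, 0.168 to 0.481). Foxp3 was also lower in the other T cells, at 30.8 and 3.08 CPM, and its part in the Klrg1 value was not tested.

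**Figure D4:**
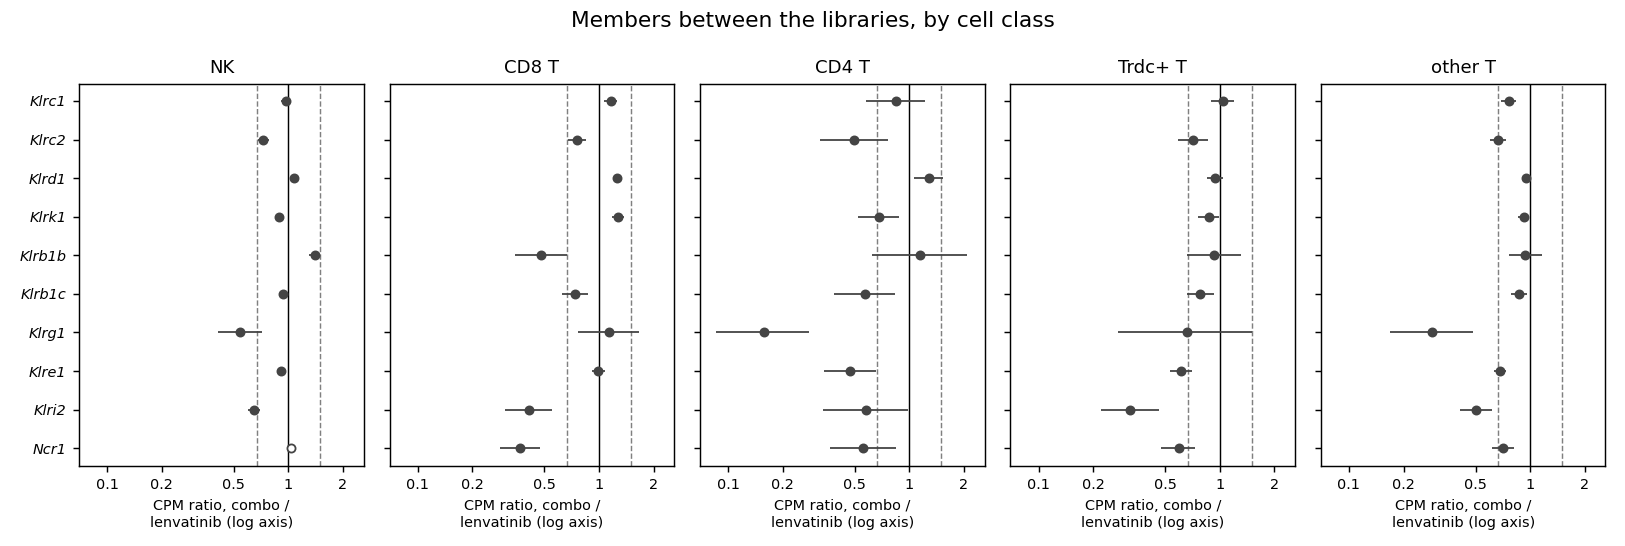
Ratio of CPM, combo to lenvatinib (log axis), for each member in 5 cell classes; bars run from the smallest to the largest ratio that the 2 Poisson 95% intervals allow, dashed lines mark 1.5-fold in each direction, and the open point is Ncr1 in NK cells, where it chose the cells. Klri2 lay below 1 in all 5 classes, and Klrk1, Klrd1 and Klrc1 lay above 1 in CD8 T cells.

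Cells with a UMI of Pdcd1, which encodes the checkpoint receptor PD-1, were compared with those without, within each library. In CD8 T cells Klrd1 was lower in the Pdcd1+ cells, at 193 against 263 CPM under lenvatinib (0.735, 0.662 to 0.815) and 273 against 329 CPM under combo (0.828, 0.756 to 0.906). Klrk1 was at 109 against 122 CPM (0.895, 0.776 to 1.03) and 125 against 161 CPM (0.777, 0.680 to 0.886), and Klrc1 at 75.7 against 96.7 CPM (0.782, 0.660 to 0.924) and 97.6 against 112 CPM (0.870, 0.745 to 1.01). Thinned detection was lower in the Pdcd1+ cells for Klrd1, at 27.6% against 35.2% and 33.7% against 42.8%. Past 1.5-fold, 0 members were lower in either library and 1 was higher in each, Klrg1 under lenvatinib on 24 UMIs (1.62, 0.856 to 2.96) and Klrb1b under combo on 27 UMIs (1.51, 0.783 to 2.86), both with ranges that include 1. Of all genes with at least 50 CPM, a level that Klrg1 and Klrb1b did not reach, 3.28% were lower and 9.02% higher under lenvatinib and 1.63% and 3.26% under combo. The median log2 difference of the members was -0.16 and -0.24, whereas that of all genes was 0.18 and 0.09.

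The same split set members further apart in Trdc+ T cells. Under lenvatinib 7 of 9 members that could be compared were lower in the Pdcd1+ cells, beside 5.57% of genes, and under combo 4 of 5, beside 5.95%, and 0 were higher in either, beside 11.5% and 21.7% of genes. Klrd1 was at 248 against 465 CPM (0.532, 0.422 to 0.666) and 202 against 445 CPM (0.455, 0.325 to 0.624), Klrc1 at 70.8 against 218 CPM (0.325, 0.211 to 0.484) and 110 against 223 CPM (0.492, 0.308 to 0.759), and Klrb1c at 81.2 against 185 CPM (0.438, 0.291 to 0.642) and 61.8 against 146 CPM (0.422, 0.225 to 0.745). Klrk1 was at 181 against 280 CPM (0.648, 0.491 to 0.846) under lenvatinib, and at 220 against 236 CPM (0.932, 0.660 to 1.30) under combo. Thinned detection of Klrd1 was 26.8% against 50.8% and 13.3% against 44.3%. The Pdcd1+ groups were small, with 57 and 47 cells. The part of NK RNA or of NK and T cell doublets in this split was not tested. In CD4 T cells 6 of 8 members were lower and 0 higher in Pdcd1+ cells under lenvatinib, beside 3.78% and 7.46% of genes. Under combo 4 could be compared, of which 0 were lower and 1 was higher, beside 3.95% and 7.36%. The higher member was Klri2, on 17 UMIs in the Pdcd1+ cells. The members not compared had under 10 UMIs in the Pdcd1+ cells, so the count of 0 lower does not cover them. Among them Klre1 had a ratio of 0.298 (0.0979 to 0.758) and Klrb1c of 0.377 (0.121 to 0.987). Klrc2, Klrb1b and Ncr1 were also below 1 and Klrg1 was above it, all with ranges that include 1. The shares of genes in these splits cover genes with at least 50 CPM, which members did not have to reach.

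**Figure D5:**
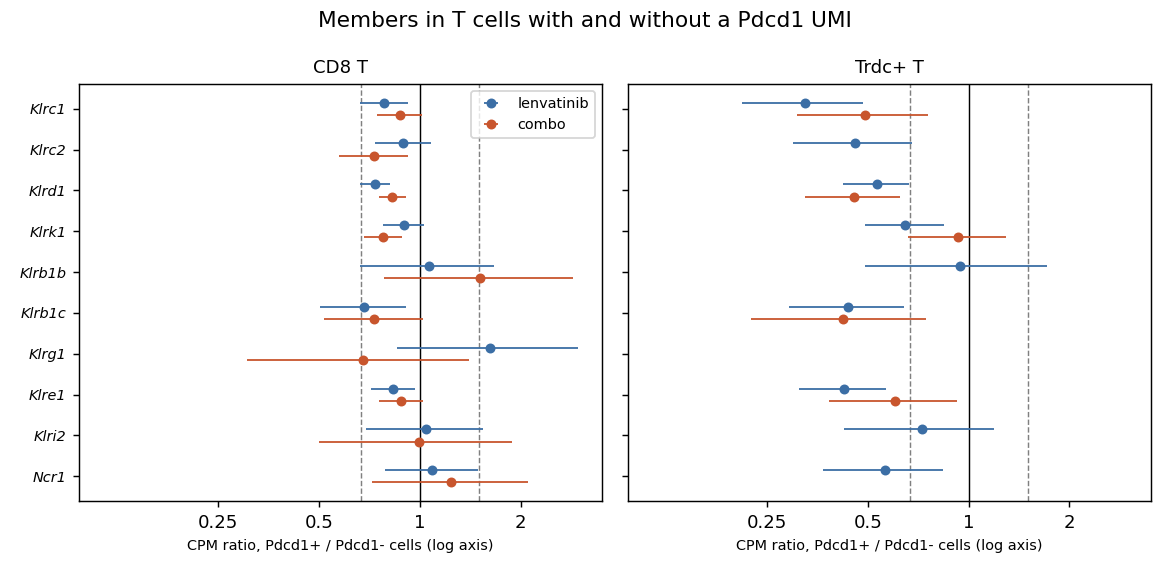
Ratio of CPM in Pdcd1+ to Pdcd1- cells (log axis) for each member in CD8 T cells and Trdc+ T cells, lenvatinib in blue and combo in orange; bars run over the ratios that the 2 Poisson 95% intervals allow, dashed lines mark 1.5-fold, and genes with under 10 UMIs on either side are not drawn. In CD8 T cells Klrd1 lay at 0.735 and 0.828, and in Trdc+ T cells at 0.532 and 0.455.

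Across the 18 sums of 9 separate classes in 2 libraries, the members were compared by the Pearson correlation of log2(CPM + 10), which is a description since the sums share libraries and depth. Klrd1, Klrc1, Klrc2, Klrk1 and Klre1, which T cells also carried, correlated with each other at 0.94 to 0.99. Klrb1b, Klrb1c and Klri2, which were nearest to confined to NK cells, correlated at 0.93 to 0.96. Ncr1 correlated with them at 0.95 to 0.98, but the NK, B and myeloid gates use Ncr1, so its values are partly set by the gates. Between these sets the correlations ran from 0.75 (Klrc1 and Klri2) to 0.95 (Klre1 and Klrb1c), so the sets are not sharply apart, and Klrg1 correlated with no other member above 0.66. Among 4615 genes that are neither members nor gate genes, the most alike were Xcl1, a chemokine gene of NK and CD8 T cells, for Klrk1 (0.9797), Klrc2 (0.975) and Klre1 (0.974), Cd160, a receptor of the immunoglobulin family, for Klrc1 (0.970) and Ctla2b for Klrd1 (0.967). Styk1 was the most alike to Klri2 (0.992), Il12rb2, a chain of the IL-12 receptor, to Klrb1c (0.981), and Klrb1a, another NKR-P1 gene, to Klrb1b (0.978). Klrb1a was also the most alike to Ncr1 (0.982), with the same limit from the gates. For Klrg1 the highest was Polr2k, at 0.871.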

How the data were processed

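Live CD45+ cells of liver tumors were measured by 10x 3′ v3 single-cell RNA sequencing, 1 library per treatment. Raw UMI counts of each gene in each cell, mapped to mm10, were deposited by the authors; the submitters' notes name Cell Ranger 5.0.1 and the matrix header 6.0.1. The libraries held 98107503 UMIs in 14509 barcodes (lenvatinib) and 93583402 in 11989 (combo). Cells with over 6000 genes or over 25% mitochondrial UMIs were removed, 308 and 376 of them. Genes, cell gates and gene lists were chosen with earlier results of these data known. UMIs were summed per class and library, CPM taken with exact Poisson 95% intervals, and a ratio's range taken from opposite ends of the intervals. A member was past the limit at 1.5-fold with at least 10 UMIs in each library; background genes also needed 50 CPM. Detection used cells thinned to 2000 UMIs (seed 7) with exact Clopper-Pearson intervals; gates used unthinned cells. With 1 library per condition there was no test. All members were named, and lists of adaptors, ligands, other receptors and factors were described by counts. Doublets called by Scrublet (scanpy 1.11.5, 4.46% and 2.76% of cells) were kept. The scripts were tested on simulated data. Python 3.11.15, numpy 2.4.6, scipy 1.17.1 and pandas 2.3.3 were used. Of the genes listed, Klrh1 and Trgc1 were not among the gene names of the matrices. Protein sequences were not used here.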

Additional observations from a re-analysis of the deposited data

Results flagged for a closer look

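In 3 members the ratio of combo to lenvatinib lay on opposite sides of 1 in different cell classes, with counting ranges that did not reach 1, and the difference between classes was not tested. Klrk1 had a ratio of 1.27 in CD8 T cells and of 0.884 in NK cells, 0.677 in CD4 T cells, 0.866 in Trdc+ T cells and 0.919 in other T cells. Without cells holding neutrophil RNA the Klrk1 log2 ratio in NK cells was -0.02, close to equal levels. Klrb1b had a ratio of 1.39 in NK cells and of 0.481 in CD8 T cells, where its level of 10.9 and 5.22 CPM is low. Klrc1 had a ratio of 1.16 in CD8 T cells and of 0.763 in other T cells.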

How the results depend on the processing

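No paired analysis was possible because each condition has 1 library and no test was run. Of 18 member values past the 1.5-fold limit between libraries, all kept their direction in most alternatives; the exceptions were Klrg1 in Trdc+ T cells, at a log2 ratio of 0.11 as the mean of per-cell CPM and 0.27 with at least 2 Cd3e UMIs, on 43 and 15 UMIs, and the cause was not tested. In NK cells the members lower under combo were 1 in place of 2 with median-of-ratios scaling, with Cd3d and Cd3g also at 0, in the gate without members and without neutrophil RNA, and 0 as the mean of per-cell CPM and at a fold limit of 2; without neutrophil RNA 1 was higher. In CD4 T cells 2 were higher with called doublets removed and 1 after B cell CPM were subtracted, in place of 0, and 3 in place of 6 were lower at a fold limit of 2. In Trdc+ T cells 1 in place of 4 was lower with at least 2 Cd3e UMIs and at a fold limit of 2, and in other T cells 1 in place of 3 at a fold limit of 2. Other counts of members stayed within 1.5 times. Median-of-ratios scaling moved the median log2 ratio of all genes by 0.23 in CD4, 0.11 in Trdc+ and 0.17 in other T cells. Leaving out cells with neutrophil RNA, subtracting B cell CPM and leaving out Foxp3+ cells were chosen after seeing the data. In NK cells the Klri2 log2 ratio ran from -0.64 to -0.42, and in CD8 T cells those of Klrk1, Klrd1 and Klrc1 lay above 0 in all alternatives run, at 0.34 to 0.51, 0.28 to 0.50 and 0.20 to 0.38. Fewer than 50 UMIs of Klrg1 in Trdc+ T cells limit what can be said there.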
